A study of Saccharomyces cerevisiae with 12 samples.

Results

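Among the 6195 splice forms in the deposited table, 449 skipped 500 nt or more of the yeast genome and lay outside SCR1, the noncoding RNA that scaffolds the signal recognition particle. They were chosen by position and host only: the last skipped base minus the first plus 1 had to be at least 500 nt, and the host could not be SCR1. Of the rest, 5486 forms were shorter and 260 lay in SCR1, where 0 forms reached 500 nt. Each form is a gap in read alignments, given by its first and last skipped base, with a read count in each library. Total RNA of haploid Saccharomyces cerevisiae of strain BY4741 was depleted of ribosomal RNA and sequenced from 12 libraries, 1 for each of 6 genotypes at 37 °C and at 25 °C. The genotypes were set1Δ prp43-1, set2Δ prp43-1, prp43-1, set1Δ, set2Δ and wild type (WT), and all of them, WT included, were labelled MATa with his3Δ1, leu2Δ0, met15Δ0 and ura3Δ0. For every library the labels give growth at 25 °C in YPD, and they do not say how long the 37 °C cultures were held there. How the prp43-1 allele was made and how many isolates stood behind a genotype were not given in the sources used here.

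Splicing removes introns from precursor RNA. Most yeast introns begin with GTATGT, end with AG and carry the branch sequence TACTAAC, whose last adenosine is joined to the start of the intron to form a lariat. Prp43 is a DEAH-box helicase that releases the excised lariat and takes apart spliceosomes, including stalled ones, and it also acts in ribosome assembly. Set1 and Set2 are histone methyltransferases that act on transcribed genes. Introns of this yeast are few and mostly short, and ribosomal protein genes hold many of the longer ones. A gap can also enter a sequencing library without splicing, for example when reverse transcriptase moves between copies of a repeat, and such gaps need no splice signals.

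Libraries held 37392 to 86845 reads outside SCR1, out of 214055 to 402886 reads in the table, so most forms rest on few reads. Reads in 4 hosts specific to α cells were present in the set1Δ libraries (16 at 37 °C and 61 at 25 °C), the set2Δ libraries (2 and 38) and the set2Δ prp43-1 libraries (15 and 99), although all were labelled MATa. The other 6 libraries had 0 such reads and 1 to 3 reads in a-specific hosts, so set1Δ, set2Δ and set2Δ prp43-1 went against their labelled mating type, and the main fits, the shares and the MAF1 and YPL162C fits are given with and without them. The set2Δ term has no such value, since both set2Δ genotypes are among them. The table held 2 reads in SET1, 0 in SET2 and 2 in PRP43, too few to check the labelled alleles. Long skips touched those hosts in SAG1, the α-agglutinin, whose 2 GT-AG skips of 618 and 627 nt had 3 reads and 1 read, all in set2Δ prp43-1 and set2Δ libraries; they were chosen after their values were seen. The prp43-1 library at 37 °C also stood apart: it showed 189 of the long skips, against 52 to 94 in the other 11 libraries. In that library 108 long skips (57.1% of those seen) were in no other library, 90 of them with 1 read. Of the 108, 105 lacked GT-AG ends. Shorter forms outside SCR1 showed this too, with 619 of 1784 seen there (34.7%) in no other library. In the other 11 libraries that share was 5.77 to 28.7% of long skips and 6.43 to 16.5% of shorter forms. Reads were counted on gaps only. Fewer skips per transcript and less host RNA can therefore not be told apart in these data.

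GT-AG long skips described below are shown first, for their splice signals: the RPS22B skip, which was called between prp43-1 and PRP43 cells, and others given by their reads or ends. Each line gives 30 bases of the sacCer3 reference on the strand of the host, 5′ to 3′. Capitals mark the first 6 skipped bases at the 5′ end, the last 3 skipped bases at the 3′ end, and TACTAAC where it lies in the window.
RPS22B 550-nt skip, 5′ end (chrXII:855870-855899, plus strand): aacaacaaGTATGTggacgaggtgtggtaa
RPS22B 550-nt skip, 3′ end (chrXII:856404-856433, plus strand): taaTACTAACgtttcaaaacaTAGtaatta
MAF1 622-nt skip, 5′ end (chrIV:458076-458105, minus strand): caatgaaaGTATGTtatcactctaaaactg
MAF1 622-nt skip, 3′ end (chrIV:457470-457499, minus strand): aaggagcagtagcagtattagCAGtttcaa
YPL162C 536-nt skip, 5′ end (chrXVI:244004-244033, minus strand): aagaatatGTATGTttctaatgggaaagac
YPL162C 536-nt skip, 3′ end (chrXVI:243484-243513, minus strand): ttctaatactaaactacttagAAGacttgg
GCR1 739-nt skip, 5′ end (chrXVI:412249-412278, plus strand): tgaaaatgGTATGGtatgatcataacacgc
GCR1 739-nt skip, 3′ end (chrXVI:412972-413001, plus strand): gccctactttctcaattggaaCAGcaaaca
BMH2 746-nt skip, 5′ end (chrIV:652773-652802, plus strand): atcgaaccGTATGTtttacctctcaataac
BMH2 746-nt skip, 3′ end (chrIV:653503-653532, plus strand): agaacgagaaaacttggacagAAGgttaat
SLP1 1553-nt skip, 5′ end (chrXV:624760-624789, plus strand): ttttgtggGTAAGTataatcggatcttttg
SLP1 1553-nt skip, 3′ end (chrXV:626297-626326, plus strand): ccgtcatttattgcatttggaAAGattgga
RPS0B 662-nt skip, 5′ end (chrXII:242314-242343, plus strand): acgttcaaGTATGTacacatatcccatacg
RPS0B 662-nt skip, 3′ end (chrXII:242960-242989, plus strand): accgacccaagattagacgctCAGgccatt
RPL7A 1021-nt skip, 5′ end (chrVII:365964-365993, minus strand): gccgctgaGTATGTatacgaaatcgtctat
RPL7A 1021-nt skip, 3′ end (chrVII:364959-364988, minus strand): tttttactttttattttcattTAGgctaac

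The second set shows the other kind, gaps without GT-AG ends, in CDC19, ENO2, SSB2 and 2 repeat-bearing cell surface genes. These pairs are not typical, since a repeat of at least 8 bases at both ends was in 2.45% of long skips. The YEF3 937-nt skip (1182 reads) is not shown. It had 1 base shared across its junction and no identical run above 3 bases. Each pair of lines holds the last 15 bases before the skip with its first 15 bases, and the last 15 bases of the skip with the 15 after it, along the host. Capitals mark bases that are the same at the same place in both lines, so a run of capitals is a direct repeat one skip length apart.
CDC19 1176-nt skip, first junction (chrI:71984-72013, plus strand): gccAgaAAgTcCGaagaattgtAccCaggt
CDC19 1176-nt skip, second junction (chrI:73160-73189, plus strand): cgtAtcAAcTtCGgtattgaaaAggCtaag
ENO2 648-nt upstream skip, first junction (chrVIII:451465-451494, plus strand): TTggAaAtgagAGAtgaaGACAAATCCAAG
ENO2 648-nt upstream skip, second junction (chrVIII:452113-452142, plus strand): TTcaAgAacccAGAatctGACAAATCCAAG
ENO2 648-nt downstream skip, first junction (chrVIII:451475-451504, plus strand): gAGAtgaaGACAAATCCAAGTGGaTGggTa
ENO2 648-nt downstream skip, second junction (chrVIII:452123-452152, plus strand): cAGAatctGACAAATCCAAGTGGtTGacTg
SSB2 1062-nt skip, first junction (chrXIV:252249-252278, plus strand): aCCCAAGAAACACtgtTtTTgatgCtAagc
SSB2 1062-nt skip, second junction (chrXIV:253311-253340, plus strand): tCCCAAGAAACACaacTgTTccaaCcAtca
HSP150 633-nt skip, first junction (chrX:120684-120713, plus strand): ATGGtCAAGTCCAAGCTgCTACcaCTACTg
HSP150 633-nt skip, second junction (chrX:121317-121346, plus strand): ATGGcCAAGTCCAAGCTaCTACtgCTACTt
PRM7 516-nt skip, first junction (chrIV:383906-383935, minus strand): gaCcGttCaAACcACTTCAGCTGgtcCAAg
PRM7 516-nt skip, second junction (chrIV:383390-383419, minus strand): agCaGacCcAACtACTTCAGCTGactCAAc

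No long skip joined neighbouring genes, and none joined paralogs. Both ends lay in 1 annotated gene for 439 of the 449 (97.8%, Wilson 95% interval 95.9 to 98.8%), and in the coding sequence of that gene for 417. The count of skips whose ends lay in separate genes was 0 of 449, which allows a share of up to 0.668%; it was 1 of 5486 among shorter forms. With no skip across genes, the count of paralog pairs was 0 at a protein identity of 30%, 40% or 60%. Of the remaining 10, 5 had 1 end in a gene and 9 reads in all, and 5 had neither end in a gene and 302 reads. Those 5 were the RPS22B skip and the 4 BMH2 skips, all upstream of the coding sequence of their host. The 4 skips that the table gave no host had 7 reads together, at chrIV:262292-263226, chrIX:218937-220701, chrV:511137-512111 and chrXIII:533768-534700.

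Paralogs can still matter for where a read was placed. The 40 bases that a skip would bring together occurred uninterrupted nowhere in the reference for any of the 449. Only exact matches were sought, so a copy with a mismatch, or one absent from the reference, would have been missed. A flank of 20 bases occurred at more than 1 place for 68 long skips with 1271 reads. In all, 89 long skips lay in 37 hosts with a copy of at least 90% nucleotide identity, such as ENO2 (94.8% identical to ENO1), SSB2 (97.5% to SSB1), EFT1 (99.8% to EFT2) and RPS0B (90.3% to RPS0A). Counts in those hosts are uncertain as to the copy. RPS22B and RPS22A were 89.6% identical over the coding sequence, which does not cover the upstream skip.

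The long skips spread over 269 hosts, of which 203 had 1 each, while 13 hosts with 5 or more held 109. Length ran from 500 to 4176 nt with a median of 719 nt, and 116 were 1000 nt or longer. The longest lay in ACC1, which encodes acetyl-CoA carboxylase, and had 1 read. GUS1 and FLC1 each had a skip of exactly 500 nt with 1 read, and the nearest forms below the limit were 2 of 498 nt in PRM7 with 5 and 2 reads. Reads were concentrated: 8251 of 632447 reads outside SCR1 (1.3%) fell on long skips, and the CDC19 1176-nt skip alone took 3339 of them (40.5%). The first 10 took 73.8%, 57 long skips had at least 10 reads, 184 had 1 read, and 62 had no read in any of the 12 libraries. In all, 14 were seen in every library and 231 in 1 library only.

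**Figure D1:**
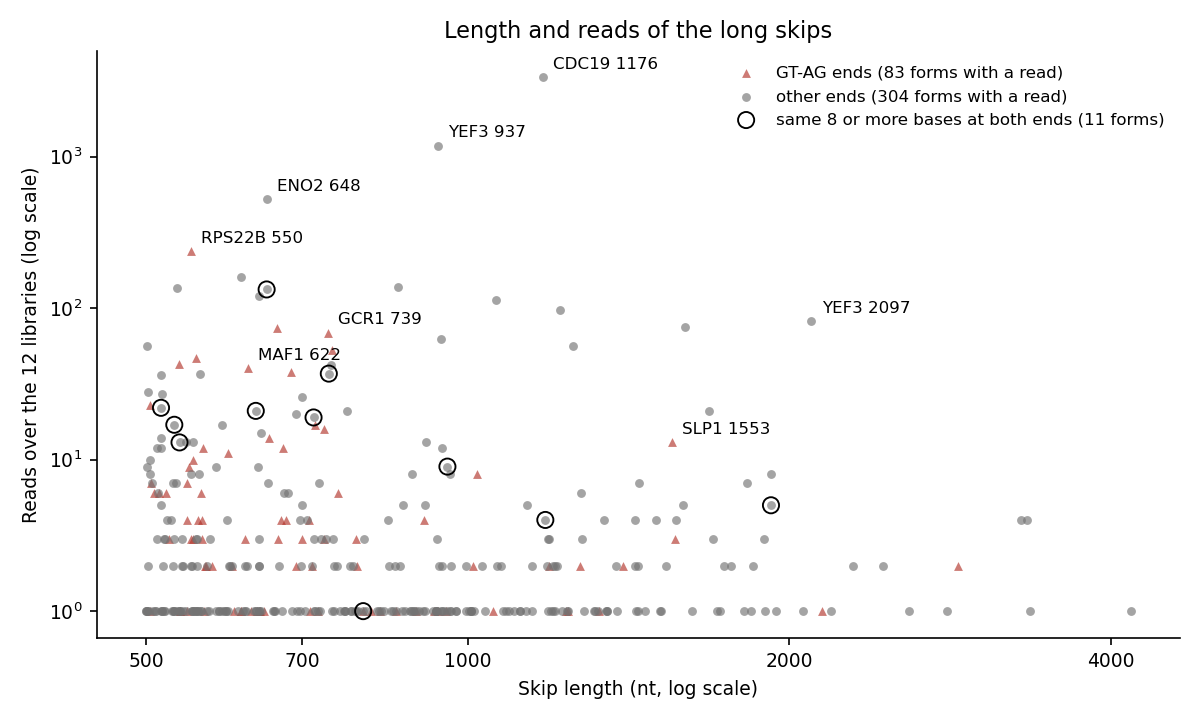
Reads summed over the 12 libraries against skip length for the 387 long skips with a read, both axes on a log scale, with GT-AG skips as triangles, others as dots and rings around forms with the same 8 or more bases at both ends. CDC19 (3339 reads) and YEF3 (1182) stand above the rest, most forms sit at 1 to 4 reads, and GT-AG skips gather below about 1000 nt.

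Genes of glycolysis and fermentation carried most of the reads. Of 21 such genes, 9 were hosts, with 42 long skips and 4742 reads (57.5%), of which 1 had GT-AG ends. CDC19, pyruvate kinase, had 10 long skips with 3493 reads, ENO2, enolase, had 9 with 992 reads, and PDC1, pyruvate decarboxylase, had 13 with 144 reads. Translation factors came next, with 26 long skips and 1773 reads (21.5%) in 3 of 8 genes. YEF3, the fungal elongation factor that helps release spent tRNA, had the most of any host, with 20 long skips of 506 to 2294 nt and 1696 reads. Ribosomal protein genes were many but shallow, with 87 long skips in 36 of 138 genes and 677 reads, 56 of them with GT-AG ends. RPS16A had 10 with 33 reads, of which 2 were GT-AG, while all 6 of RPS0B and all 5 of RPS9A were GT-AG. HSP70 chaperones had 5 in 3 of 6 genes with 129 reads, mostly SSB2, which binds new chains at the ribosome. Cell wall repeat proteins had 9 in 3 of 24 genes (HSP150, FLO1 and SED1), with 123 reads. Hexose transporters (17 genes), tandem or subtelomeric families (54), ubiquitin genes (4) and histones (8) had none. Noncoding RNA hosts had 2 long skips with 3 reads.

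GT-AG ends, read on either strand, marked 118 of the 449 long skips (26.3%, Wilson interval 22.4 to 30.5%), against 727 of 5486 shorter forms (13.3%). The share was 25.3% from 300 to under 500 nt, 21.8% from 100 to under 300 nt and 7.32% below 100 nt, and it was 16.4% at 1000 nt or more. Without the forms seen only in the prp43-1 library at 37 °C it was 33.7% (115 of 341). Most GT-AG long skips ran with the gene, 113 of 118, and the 5 on the opposite strand had 4 reads together. GT-AG skips had 902 reads (10.9% of long-skip reads), against 7349 on the others. By host, 76 of the 118 lay in genes with an annotated intron, against 31 of the 331 others.

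Of the 118 GT-AG skips, many carried intron signals and most ended at unannotated sites. GTATGT began 63 of them and TACTAAC lay in 77, with both in 47. Among the 331 other long skips GTATGT began 14 and TACTAAC lay in 41. The GT-AG skips ended in AAG in 48, CAG in 41, TAG in 26 and GAG in 3. At their 5′ end 62 used an annotated 5′ splice site with an unannotated 3′ end (343 reads), and 61 of those 62 ended past the annotated 3′ site. The distance past it had a median of 218 nt and quartiles of 51.8 and 332 nt. In 54 of these the branch adenosine lay a median of 254 bases from the end, while in the 20 GT-AG skips with TACTAAC that did not begin at an annotated 5′ site it lay 52 bases away. In shorter GT-AG forms the median was 39 bases (n = 347). Within 100 bases of the end it lay in 32 of 77 long and in 311 of 347 shorter ones. These are counts over forms, many of which share a host and a 5′ site, and no test was made.

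Among the skips from an annotated 5′ site, the one with most reads was the 662-nt skip of RPS0B, a small-subunit ribosomal protein. It began with the annotated intron (chrXII:242322-242680) and ended 303 nt past it, 332 bases after the branch adenosine. MAF1, a repressor of RNA polymerase III, has an annotated intron of 80 nt. Its 622-nt skip began there and ended 542 nt further on, 574 bases after a branch sequence. RPS27B had a 557-nt skip with 47 reads that ended 7 nt past the annotated intron of 550 nt. Annotated sites at both ends were joined by 3 long skips with 13 reads, among them RPL7A (1021 nt, 8 reads) and RPL7B (910 nt, 4 reads). RPL7A and RPL7B encode a large-subunit ribosomal protein and have 2 annotated introns each, so these skips leave out the exon between them. The snoRNA genes SNR39 and SNR59, which lie in introns of RPL7A and RPL7B, fell inside long skips, as did SNR24 in ASC1.

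GT-AG skips with no annotated site numbered 47 and had 515 reads, against 343 for those at annotated 5′ sites. Without the RPS22B skip they had fewer reads than those at annotated 5′ sites. Introns were taken from gaps between coding parts, so an intron in a leader could not count as annotated. The RPS22B skip (chrXII:855878-856427) had 239 reads, began GTATGT, ended TAG 15 bases after the branch adenosine, and left 14 nt to the first coding base. RPS22B, a small-subunit ribosomal protein, also has an annotated intron in its coding sequence, and an intron in its leader is also known. BMH2, a 14-3-3 protein, had 4 skips from the same first base, chrIV:652781, whose most-read form (746 nt, 53 reads) ended 80 nt before the coding sequence. GCR1, an activator of glycolytic genes, had 6 GT-AG long skips with 134 reads around its annotated intron of 751 nt (chrXVI:412262-413012). Its 739-nt skip (69 reads) started at chrXVI:412257 with GTATGG, and its 683-nt skip (38 reads) started at chrXVI:412313. Both ended at chrXVI:412995, 34 bases after a branch adenosine and before the annotated 3′ site. In YPL162C the 536-nt skip took out coding bases 3 to 538. SLP1, a membrane glycoprotein of the endoplasmic reticulum, lost coding bases 40 to 1592 of 1764 in its 1553-nt skip, which began GTAAGT.

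**Figure D2:**
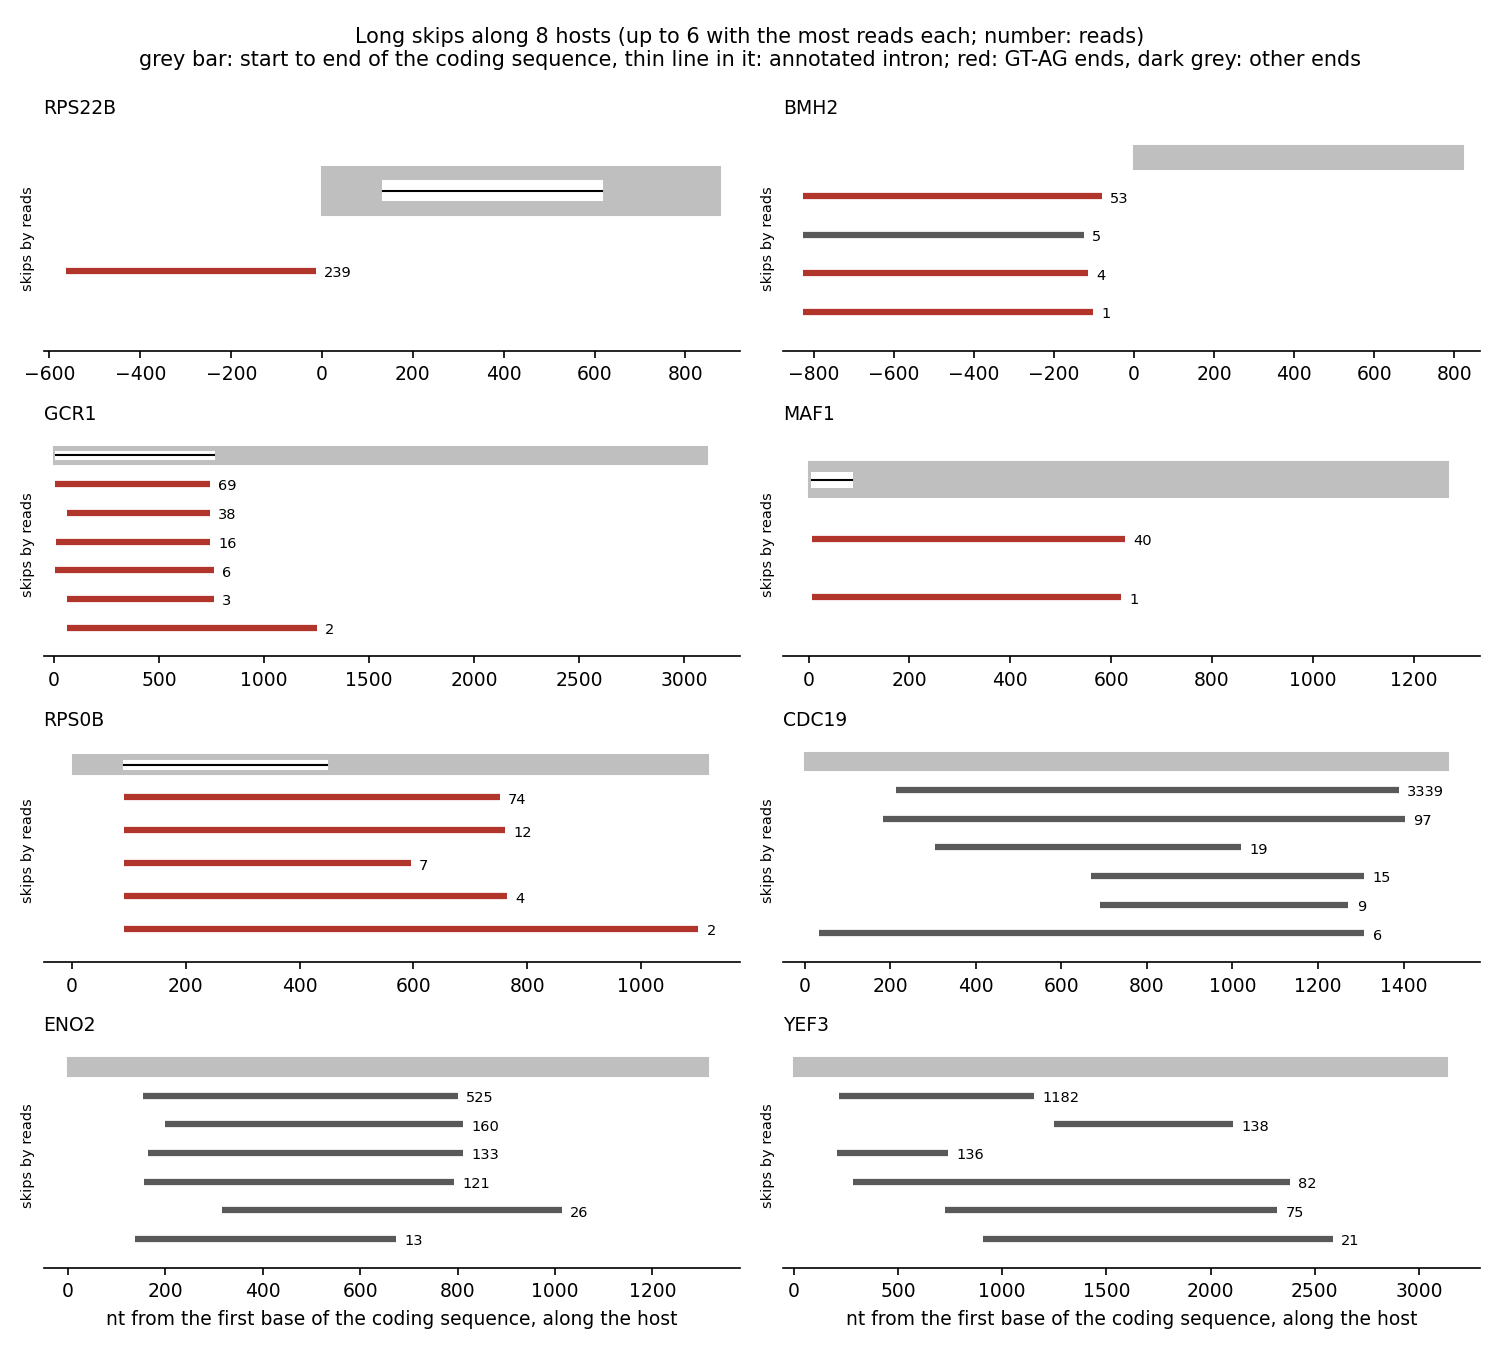
Long skips along 8 hosts, up to 6 with the most reads each, drawn to scale in nt from the first coding base, with GT-AG skips in red, others in dark grey, and reads beside each. RPS22B and BMH2 skips end before the coding sequence, GCR1, MAF1 and RPS0B skips share 5′ or 3′ ends with each other, and CDC19, ENO2 and YEF3 skips lie inside uninterrupted coding sequence.

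The 331 other long skips had no common pair of end dinucleotides: 171 different pairs occurred, and the most frequent was in 10 forms. Some did begin at an annotated 5′ splice site. Of all long skips, 78 did so with an unannotated 3′ end, and 62 of those had GT-AG ends. The rest included RPS13 skips of 540 and 541 nt, which ended 1 and 2 nt past the annotated 3′ site. A repeat of at least 8 bases at both ends occurred in 11 of the 449 (2.45%), with 281 reads, against 4.05% of shorter forms. It was in 12.3% of the 57 long skips with at least 10 reads, and in all 11 cases the skip was a multiple of 3. Bases one skip length apart were alike at 13 or more of 25 places near the junction in 6.9% of long skips and in 11.7% of shorter forms. The examples above differ in this. The downstream ENO2 skip had 15 shared bases across its junction and HSP150 had 12. The upstream ENO2 skip lay 3 bases from the same run of 15, of which its lines show 12. The SSB2 skip had a run of 12 that ended 2 bases from its junction. The CDC19 skip, with most reads of all, had 8 of 30 bases alike and no run above 2.

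Of the other long skips inside 1 coding sequence, 142 of 309 were multiples of 3 (46.0%, Wilson interval 40.5 to 51.5%), and 24 of the 37 with at least 10 reads (64.9%, 48.8 to 78.2%). Shorter forms without GT-AG ends had 54.2% and 69.6% with at least 10 reads. GT-AG long skips had 32 of 108 (29.6%, 21.8 to 38.8%). Skips of the others covered a median of 44.0% of the span from start to stop codon. Some skips of a host shared their length: 4 in PRM7, a membrane protein induced by pheromone, were 516 nt long with 77 reads, and 2 in ENO2 were 648 nt with 658 reads.

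Over the libraries, long skips made up 0.761 to 1.81% of reads outside SCR1. At 37 °C the share averaged 1.06 ± 0.473% in prp43-1 genotypes and 1.30 ± 0.0593% in PRP43 genotypes (SD, n = 3 each). At 25 °C it averaged 1.36 ± 0.145% in prp43-1 and 1.52 ± 0.25% in PRP43 genotypes. The mean log2 difference of 37 °C over 25 °C was -0.33 ± 0.51 (SD over 6 genotype pairs, lower in 5), and that of prp43-1 over PRP43 was -0.27 ± 0.41 (6 pairs, lower in 4), both smaller than the spread. Without the most-read form, the CDC19 skip, the prp43-1 value was -0.66 ± 0.62, slightly larger than its spread, and the temperature value -0.18 ± 0.70. With set1Δ over intact SET1 it was -0.16 ± 0.60 and with set2Δ over intact SET2 -0.21 ± 0.60 (4 pairs each). Without the 3 genotypes that went against their mating-type label the temperature value was -0.12 and the prp43-1 value 0.045. Without the forms seen only in the prp43-1 library at 37 °C they were -0.39 and -0.33.

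GT-AG skips and the others did not follow the libraries in the same order. GT-AG skips took 0.0425 to 0.0936% of reads at 37 °C and 0.0599 to 0.107% at 25 °C in prp43-1 genotypes, against 0.11 to 0.406% at 37 °C and 0.127 to 0.212% at 25 °C in PRP43 genotypes. The groups did not overlap, and all 6 pairs were lower in prp43-1, by a mean log2 difference of -1.45 ± 0.95. Without the RPS22B skip the groups overlapped, with 0.103% in set2Δ prp43-1 at 25 °C and 0.0714% in WT at 25 °C. The mean log2 difference was then -0.81 ± 1.03, lower in 4 of 6 pairs. In the 2 pairs free of the genotypes against their mating-type label it was -1.41 with RPS22B and -0.78 without it, lower in 2 and in 1 of 2. At 37 °C the highest libraries were WT (222 of 54633 reads) and set2Δ (127 of 39068), while set1Δ (59 of 53729) lay below the 3 PRP43 libraries at 25 °C. The other long skips had a mean difference of -0.10 ± 0.47 between prp43-1 and PRP43 and of -0.44 ± 0.47 between 37 °C and 25 °C, lower at 37 °C in 5 of 6 pairs. The prp43-1 pair was the exception, with 564 of 37392 reads at 37 °C against 570 of 49088 at 25 °C.

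**Figure D3:**
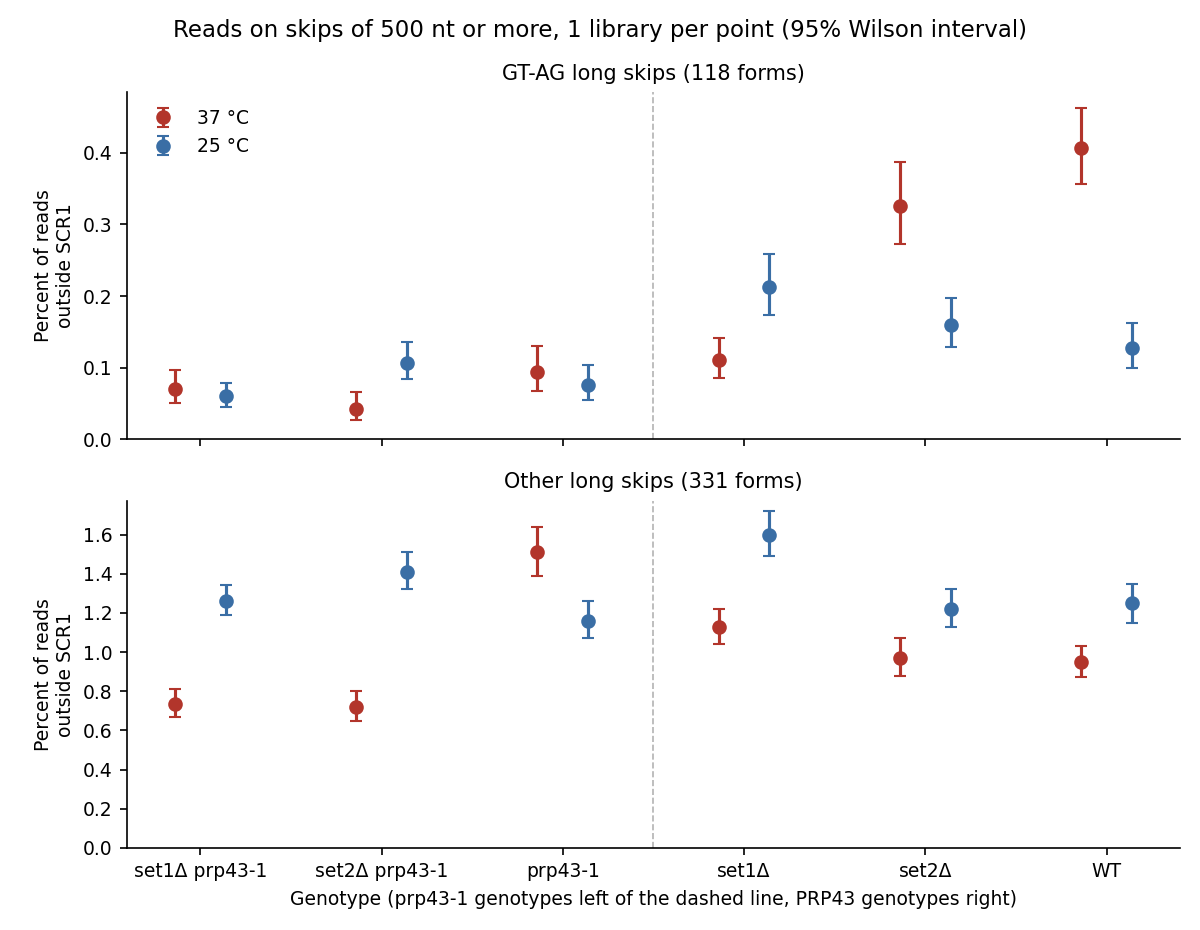
Percent of reads outside SCR1 on GT-AG long skips (top, 118 forms) and on other long skips (bottom, 331 forms), 1 point per library with its Wilson 95% interval, 37 °C in red left of 25 °C in blue. For GT-AG skips, RPS22B included, every prp43-1 library lies below every PRP43 library, and WT at 37 °C is the highest at 0.406%. Without the RPS22B skip these groups overlap.

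Single forms were compared in 1 model over all 12 libraries (edgeR's quasi-likelihood test), with terms for set1Δ, set2Δ, prp43-1 and temperature. Of the 451 forms with enough reads to test, 12 were long skips: 4 in ENO2, 3 in YEF3, 2 in CDC19 and 1 each in RPS22B, SSB2 and RPS0B. The other 437 long skips were too sparse. With 1 library per genotype and temperature, the spread comes from libraries that the model treats as alike.

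At 37 °C 3 of these 12 fell relative to 25 °C at a Benjamini-Hochberg adjusted p under 0.05, while 7.98% of all tested forms changed (5.99% higher and 2% lower). The most-read skip, in CDC19, had 221, 198, 192, 173, 142 and 211 reads at 37 °C in set1Δ prp43-1, set2Δ prp43-1, prp43-1, set1Δ, set2Δ and WT cells, against 583, 454, 310, 346, 299 and 210 reads at 25 °C. Relative to library size, SCR1 reads included, it was lower at 37 °C in 5 genotypes and higher in WT, and the ranges overlapped. As a share of reads outside SCR1 it was lower at 37 °C in WT too (0.386% against 0.417%). Its count scaled by library size (CPM, after TMM) averaged 718 ± 148 CPM at 37 °C and 1218.5 ± 343 CPM at 25 °C (SD, n = 6 each), a log2 change of -0.74 ± 0.22 (SE, edgeR adjusted p = 0.0493). The upstream 648-nt skip of ENO2 had 17, 14, 19, 54, 33 and 45 reads at 37 °C, against 55, 48, 28, 55, 76 and 81 reads at 25 °C, in the same order of genotypes. It was lower in 6 of 6 genotypes in CPM, with a log2 change of -0.82 ± 0.23 (edgeR adjusted p = 0.0458). The downstream 648-nt skip had 1, 5, 2, 12, 3 and 8 reads at 37 °C, against 9, 13, 12, 20, 26 and 22 reads at 25 °C. It too was lower in 6 of 6, by a log2 change of -1.62 ± 0.43 (edgeR adjusted p = 0.0344).

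All 12 tested long skips had a fitted value below 0 for temperature, with a median of -0.78, against a median of -0.033 and 52.3% below 0 for all tested forms. The unadjusted p was under 0.05 for 5 of the 12. The YEF3 937-nt skip had 45, 36, 99, 149, 66 and 89 reads at 37 °C, against 160, 131, 76, 115, 92 and 124 at 25 °C, higher in CPM in 3 genotypes and lower in 3. Its log2 change was -0.41 ± 0.29 (edgeR adjusted p = 0.407). Tested shorter forms in the 3 hosts with most tested long skips also lay mostly below 0: 12 of 12 tested in ENO2 were below 0 (median -0.79), 7 of 7 in CDC19 (median -0.55) and 9 of 10 in YEF3 (median -0.53). None of those shorter forms passed the test. In SSB2 the 1 tested shorter form had -0.74, beside -1.08 for the long skip. RPS22B differed: its tested 69-nt form fell by 2.05 on the log2 scale (edgeR adjusted p = 0.0155), while its long skip had -0.58 and was not called (edgeR adjusted p = 0.66). Without the 3 genotypes that went against their mating-type label, 0 long skips and 2 forms in all were called for temperature, against 1 long skip and 5 forms for prp43-1. With genotype as a block only the downstream ENO2 skip was called (edgeR adjusted p = 0.0384), while CDC19 and the upstream ENO2 skip were not (0.0773 for both). The 3 long skips called were below 0 under each of the 14 alternatives, and adjusted p ran from 0.00527 to 0.939.

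Between prp43-1 and PRP43 cells 2 of the 12 long skips fell, while 3.99% of all tested forms changed. The RPS22B skip had 0, 0 and 0 reads at 37 °C in set1Δ prp43-1, set2Δ prp43-1 and prp43-1 cells, against 5, 41 and 63 reads in set1Δ, set2Δ and WT cells. At 25 °C it had 4, 2 and 1 reads in the prp43-1 genotypes, against 51, 44 and 28 reads in the PRP43 genotypes. Every prp43-1 library lay below every PRP43 library, and the set1Δ library at 37 °C was the lowest of the PRP43 libraries. The scaled count averaged 3.5 ± 4.18 CPM in prp43-1 and 145 ± 85.5 CPM in PRP43 libraries (SD, n = 6 each), a log2 change of -5.05 ± 0.75 (edgeR adjusted p = 0.000849). It was called under all 13 alternatives, at log2 values from -5.82 to -4.67, the first of them without the genotypes that went against their mating-type label (edgeR adjusted p = 0.000186). The shorter forms of RPS22B had 211 reads in prp43-1 and 834 in PRP43 libraries, and the one tested, a 69-nt GT-AG form at the 3′ end of the annotated intron, fell by 2.65 ± 0.40 on the log2 scale (edgeR adjusted p = 0.000849).

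The second was the upstream ENO2 skip, with 17, 14 and 19 reads at 37 °C in the prp43-1 genotypes, against 54, 33 and 45 in the PRP43 genotypes. At 25 °C it had 55, 48 and 28 reads, against 55, 76 and 81. It was lower in 6 of 6 pairs in CPM, with a log2 change of -1.03 ± 0.23 (edgeR adjusted p = 0.0167), and was called under 5 of 13 alternatives. Its fold lay among those of the 12 tested shorter forms of ENO2, all below 0 with a median of -1.04, of which 2 passed the test. The CDC19 1176-nt skip was higher in CPM in 6 of 6 pairs with a log2 change of 0.39 ± 0.21 (edgeR adjusted p = 0.403), which did not pass. As a share of reads outside SCR1 it was lower in set1Δ prp43-1 than in set1Δ at 25 °C (0.671% against 0.733%). Of the 12, 10 were below 0 for prp43-1, with a median of -0.61, against 55.9% of all tested forms and a median of -0.059.

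**Figure D4:**
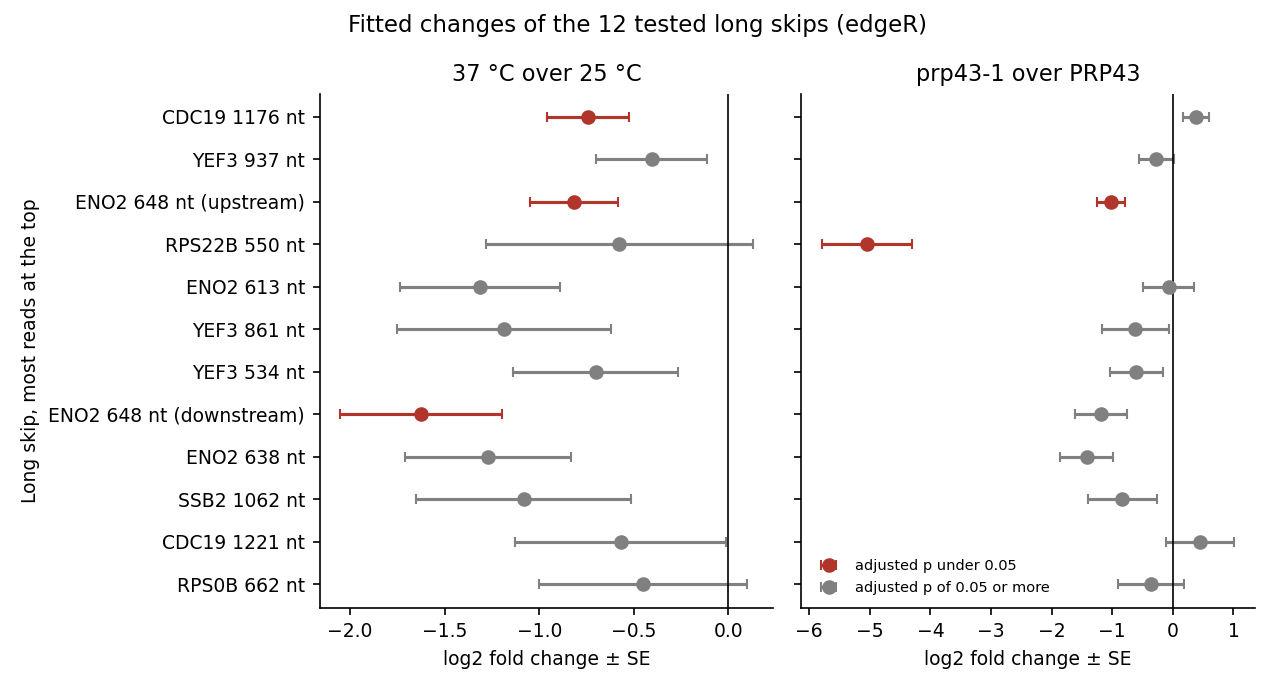
Fitted log2 fold changes with SE of the 12 tested long skips for 37 °C over 25 °C (left) and prp43-1 over PRP43 (right), red where the edgeR adjusted p was under 0.05. All 12 lie below 0 for temperature, and RPS22B at -5.05 stands far from the rest for prp43-1.

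The set1Δ and set2Δ terms and the prp43-1 by temperature interaction gave no call: 0 of 12 long skips and 0 of 451 forms passed in each (percent called 0), by edgeR with Benjamini-Hochberg adjustment. At an unadjusted p under 0.05 there were 0, 0 and 2 long skips and 15, 17 and 48 forms, and DESeq2 called 0, 0 and 1 forms and no long skip.

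Several GT-AG skips below the read filter of the main test had most of their reads in a few libraries, and MAF1, YPL162C, SLP1 and the GCR1 683-nt skip were singled out after their values were seen. The MAF1 skip had 0 reads in each of the 3 prp43-1 genotypes at 37 °C, against 9, 9 and 22 reads in set1Δ, set2Δ and WT cells, and 0 reads in all 6 libraries at 25 °C. With a floor of 3 reads over the group at 0, it was at least 15.2-fold higher at 37 °C than at 25 °C, and at least 13.6-fold lower in prp43-1 than in PRP43 libraries. WT at 37 °C held 22 of its 40 reads, and without that library the bounds were 8.05-fold and 7.13-fold. In a fit of the 1440 forms with at least 10 reads it was called for temperature (edgeR adjusted p = 0.0017), where 3.54% of forms were called (2.29% higher and 1.25% lower). For prp43-1 it was called too (edgeR adjusted p = 0.00163), where 2.92% were called (1.53% higher and 1.39% lower). All 40 reads lay in PRP43 libraries at 37 °C, so the skip passed the 10-read limit only through the group where it was high. These calls rest on the values it was picked for and add no separate support. Both calls were lost without WT (edgeR adjusted p = 0.0771 and 0.134) and without the genotypes against their mating-type label (0.374 and 0.377), and the prp43-1 call also without set2Δ (0.0597). The shorter MAF1 forms had 14 reads at 37 °C and 0 at 25 °C, and 1 read in prp43-1 against 13 in PRP43 libraries. The other long skip of MAF1, of 613 nt, had its 1 read in set1Δ prp43-1 at 37 °C. YPL162C had 1, 0 and 0 reads at 37 °C in the prp43-1 genotypes, against 4, 7 and 24 reads in the PRP43 genotypes, and 0, 0 and 1 against 1, 1 and 4 reads at 25 °C. Of its 43 reads, 35 were in PRP43 libraries at 37 °C, so it too passed the 10-read limit through them. In the fit of forms with at least 10 reads its log2 change for prp43-1 was -3.44 ± 0.95 (edgeR adjusted p = 0.016). For temperature it was 2.14 ± 0.89 (edgeR adjusted p = 0.15). The prp43-1 call was kept without set1Δ or set1Δ prp43-1, and lost without any of the other 4 genotypes (edgeR adjusted p = 0.216 to 0.362) and without the mismatched ones (0.446).

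Other GT-AG skips below the filter are given as reads only. The GCR1 683-nt skip had 3, 1 and 0 reads at 37 °C in set1Δ prp43-1, set2Δ prp43-1 and prp43-1 cells, against 3, 12 and 14 reads in set1Δ, set2Δ and WT cells. At 25 °C it had 0, 2 and 0 reads, against 1, 2 and 0 reads. The GCR1 739-nt skip had 4, 4 and 2 reads at 37 °C in the prp43-1 genotypes against 2, 6 and 25 reads, and 1, 10 and 2 against 5, 4 and 4 reads at 25 °C, so WT at 37 °C alone was high. SLP1 had 0 reads in every prp43-1 library, and 10 of its 13 reads were in WT at 37 °C. The BMH2 746-nt skip had 0 reads in each prp43-1 genotype at 37 °C, against 2, 6 and 9 reads in the PRP43 genotypes, and 6, 7 and 0 against 11, 5 and 7 reads at 25 °C. All 4 BMH2 long skips together had 0, 4 and 0 reads at 37 °C in the prp43-1 genotypes, against 4, 6 and 9 reads. RPS27B had 2, 1 and 4 reads at 37 °C in the prp43-1 genotypes against 2, 3 and 8 reads, and 4, 10 and 6 against 2, 3 and 2 reads at 25 °C. Raw reads at 25 °C were thus higher in each prp43-1 library, without allowing for unequal library sizes, while those at 37 °C overlapped. In CPM 4 of 6 pairs were higher in prp43-1 and 2 were lower. The GT-AG skips at annotated 5′ sites took 0.0389 ± 0.0178% of reads at 37 °C in prp43-1 and 0.0902 ± 0.0193% in PRP43 genotypes, and 0.0505 ± 0.00923% against 0.0399 ± 0.00539% at 25 °C (SD, n = 3 each).

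**Figure D5:**
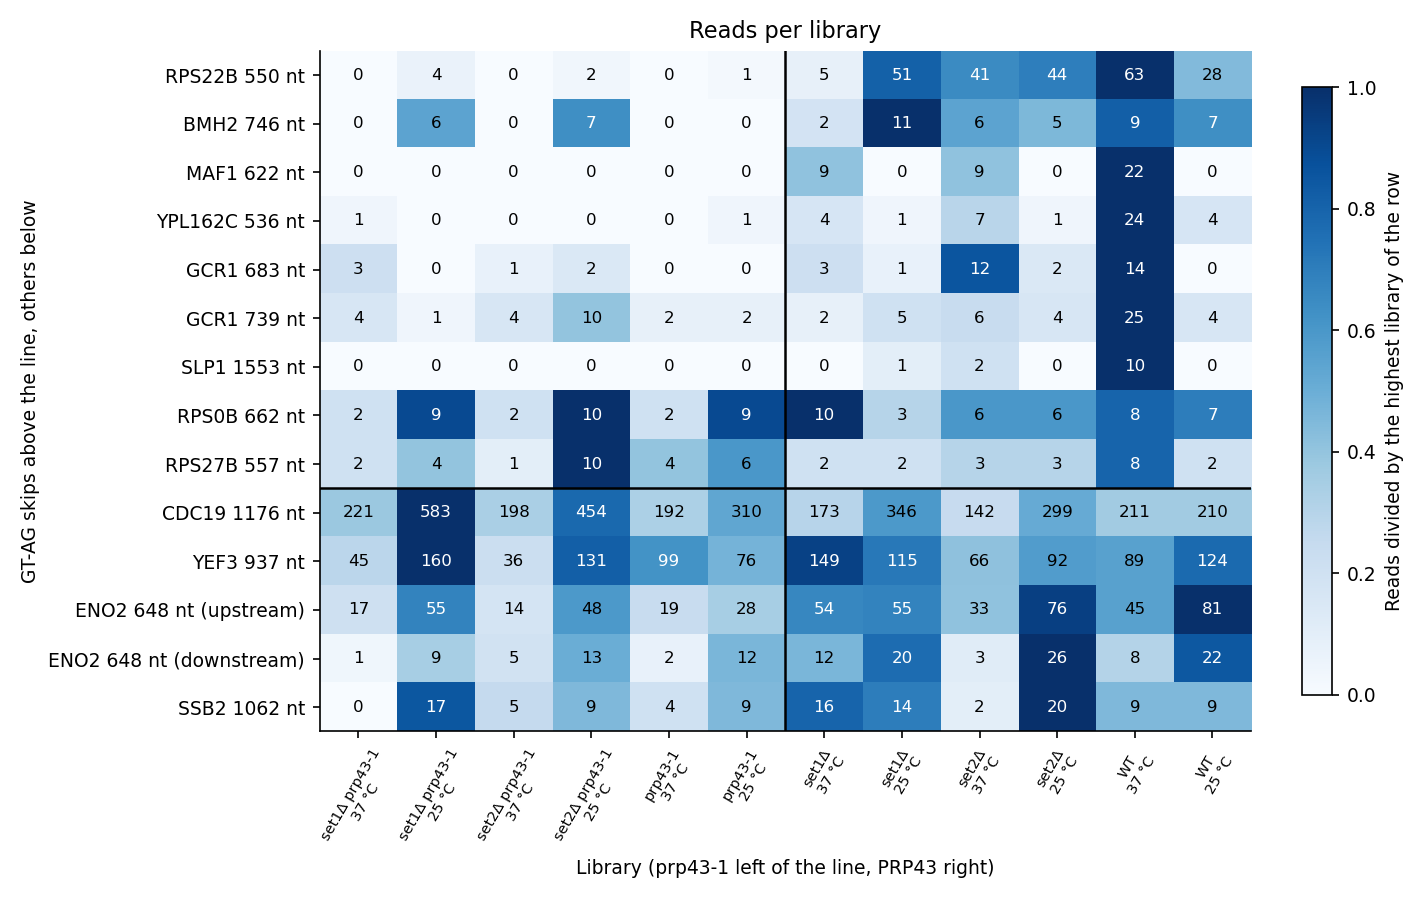
Reads in each library of 9 GT-AG long skips (above the line) and 5 others (below), prp43-1 libraries left and PRP43 libraries right, each genotype with 37 °C before 25 °C and each row shaded by its own highest library. RPS22B, MAF1, YPL162C and SLP1 have few or no reads left of the line, and WT at 37 °C is the highest library for 6 of the 9 GT-AG rows.

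Long skips of the repeat-bearing hosts and of PDC1 differed among themselves over the libraries, given as read counts without a test. The 9 long skips of PRM7 had 29, 10 and 27 reads at 37 °C in set1Δ prp43-1, set2Δ prp43-1 and prp43-1 cells, against 29, 1 and 3 reads in set1Δ, set2Δ and WT cells. At 25 °C they had 23, 4 and 1 reads, against 6, 0 and 4 reads. Shorter forms of PRM7 had 83 reads at 37 °C and 17 at 25 °C. HSP150, a cell wall protein with tandem repeats, had 501-nt skip reads of 5, 7, 1, 10, 8 and 7 at 37 °C, against 6, 3, 3, 2, 1 and 3 at 25 °C, higher in CPM in 5 of 6 genotypes. Its 633-nt skip, with the 12-base repeat, was higher in 3 genotypes and lower in 3, and the shorter forms of HSP150 had 4122 reads at 37 °C and 2334 at 25 °C. The 531-nt skip of SED1, another cell wall protein, was higher at 37 °C in 1 genotype and lower in 3, with no reads in the other 2 pairs. Between prp43-1 and PRP43 it was lower in 6 of 6 pairs with no overlap (0.543 ± 1.33 against 9.71 ± 5.95 CPM, SD, n = 6 each), on 17 reads. It was picked after its values were seen. Its reads lay mostly in PRP43 libraries, so it passed the 10-read limit through them, and its lack of overlap adds no separate support. Of the 57 long skips with at least 10 reads, only this one and the RPS22B skip did not overlap there. The share of such forms over all forms was not counted, so this count has no background beside it. PDC1 had its 1254-nt skip lower in 6 of 6 genotypes, with 4, 0, 3, 3, 1 and 3 reads at 37 °C, against 11, 4, 7, 4, 9 and 7 reads at 25 °C.

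The 3 longest skips with at least 10 reads were all in YEF3, with SLP1 next at 1553 nt. Its 2097-nt skip took out coding bases 284 to 2380 of 3135 and had 3, 3, 4, 2, 4 and 2 reads at 37 °C in set1Δ prp43-1, set2Δ prp43-1, prp43-1, set1Δ, set2Δ and WT cells, against 21, 7, 13, 8, 9 and 6 reads at 25 °C. It was lower in CPM in 6 of 6 genotypes. Its 1597-nt skip, over coding bases 725 to 2321, had 7, 7, 6, 12, 3 and 7 reads at 37 °C, against 10, 8, 8, 5, 1 and 1 reads at 25 °C, and was higher in CPM in 4 of 6. The 1682-nt skip, with 21 reads, was higher in 3 genotypes and lower in 3. All 3 were too sparse for the main test.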

How the data were processed

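Total RNA of 12 yeast libraries was sequenced after depletion of ribosomal RNA. The deposited table holds raw read counts per splice form and library, and 1 p-value per form; what the deposited p-value tests is not given in the sources used here, and it served only in a check of the build. Per the submitters' processing notes, CASAVA, STAR 2.4.0 and sacCer3 were used. Per the labels, libraries were made with a TruSeq kit, of a version that does not mark strand. The reference used here, R64, is that build: where the deposited p-value was below 1 (1112 forms), GT-AG ends stood at the given positions in 729 and at most 26 at any shift of up to 10 nt. Genes, introns and sequences came from RefSeq's annotation, matched for 445 of the 449 long skips. Annotated introns were the gaps between coding parts of a gene, so introns in leaders were not among them. The 29 forms with no host had 0.0033% of reads.

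Counts were filtered (filterByExpr), scaled by TMM over column totals and fitted with edgeR 4.0.16 in R 4.3.3, with Benjamini-Hochberg adjustment over all tested forms. The code was tested on simulated data. Shares have Wilson 95% intervals, which cover counting error only, since PCR copies are not independent molecules. Pair differences of shares used a pseudocount of 1 read. The p-values measure the spread between these libraries, which may be technical in part. Members, gene lists and tests were chosen with earlier results of these data known. Candidates for naming were the 20 long skips with most reads, all called and the 5 most-read per class. The 3 longest with at least 10 reads and those next to the length limit were candidates too. Some candidates are not described singly, such as the ADH1 741-nt, CDC19 717-nt and EFT1 944-nt skips. Others that are described were chosen after their values were seen. Alternatives changed scaling, filters, tool (DESeq2 1.42.0), libraries, denominator and the length, repeat and paralog limits. Shares without RPS22B, without the genotypes against their mating-type label or without forms of 1 library, and the MAF1 and YPL162C values with libraries left out, were added after seeing the data.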

Additional observations from a re-analysis of the deposited data

Results flagged for a closer look

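The 662-nt skip of RPS0B was flagged because its scaled counts differed with temperature in opposite directions in the prp43-1 and PRP43 genotypes. At 37 °C it had 2, 2 and 2 reads in set1Δ prp43-1, set2Δ prp43-1 and prp43-1 cells, against 9, 10 and 9 reads at 25 °C. In set1Δ, set2Δ and WT cells it had 10, 6 and 8 reads at 37 °C, against 3, 6 and 7 reads at 25 °C. Relative to library size every prp43-1 pair was lower at 37 °C and every PRP43 pair was higher. The set2Δ pair was higher by scaling only, since its raw reads were equal, and WT had 8 against 7 reads. The mean log2 temperature difference was -2.32 in prp43-1 minus PRP43 genotypes, on the values for which the skip was picked. The interaction term of the model had a log2 value of -2.78 and did not pass (edgeR adjusted p = 0.265), and with 74 reads in all the counting error is large. RPS0B also has a close copy, RPS0A, and the part of the copy in this result was not tested.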

How the results depend on the processing

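Over the 24 fitted values of the 12 tested long skips (temperature and prp43-1), 268 of 320 alternative values kept direction and call, 35 lost the call, 6 gained it and 11 changed sign. The sign changes were in 3 values that had not been called: ENO2 613 nt for prp43-1 (0.0101 without SCR1, 0.0276 with repeated positions once, and -0.62 to 0.29 with a genotype left out), YEF3 937 nt for prp43-1 (-0.54 to 0.10 with a genotype left out and 0.20 without the genotypes against their mating-type label) and RPS22B for temperature (-1.58 to 0.23 with a genotype left out and 0.46 without those genotypes). For temperature, the 36 calls over all forms (27 higher, 9 lower) became 3 without TMM factors (1 higher, 2 lower), 75 without SCR1 (50 higher, 25 lower), 56 with DESeq2 (34 higher, 22 lower), 14 with no filter (7 each way), 2 without the mismatched genotypes (both lower), and 2 to 60 with a genotype left out. The lowest of these was without set2Δ and the highest without WT. The 3 long skips called became 0, 5, 5, 1 and 0 in the same order, 1 with repeated positions once, and 0 to 5 with a genotype left out (0 without set2Δ, prp43-1 or set2Δ prp43-1, 5 without WT). Without TMM factors the median of all forms moved to -0.17 for temperature. No paired analysis by replicate number was possible because the labels give 1 library per group; with genotype as a replicate block 24 forms and 1 long skip were called for temperature, and 0 for the interaction. For prp43-1 the 18 calls became 38 with DESeq2, 42 at 10 reads or more, 36 with no filter, 5 without the mismatched genotypes and 7 to 31 with a genotype left out (7 without set2Δ, 10 without set2Δ prp43-1, 31 without set1Δ). The 2 long skips called became 4 at 10 reads or more, 1 without the mismatched genotypes, and 1 to 2 with a genotype left out, the RPS22B skip being called in each. For set1Δ there were 2 calls over all forms at 10 reads or more, 1 with no filter and 0 to 1 with a genotype left out. For set2Δ there were 3, 3 and 0 to 2, and for the interaction 1, 1 and 0 to 1, with 1 by DESeq2 and 8 without the mismatched genotypes; 0 long skips were called in any of these. The mean log2 difference of the long-skip share became 0.49 for temperature with GT-AG skips other than RPS22B. For prp43-1 it became 0.24 at 1000 nt or more, -1.45 with GT-AG skips and -0.81 with those other than RPS22B. With a pair left out it ran from -0.48 to -0.20 for temperature, -0.37 to -0.17 for prp43-1, -0.34 to 0.12 for set1Δ and -0.38 to 0.08 for set2Δ. GT-AG ends were in 16.4% at 1000 nt or more and 33.7% without forms seen only in prp43-1 at 37 °C. TACTAAC, in 26.3% of long skips, was in 31.6% at 10 reads or more, 15.5% at 1000 nt or more and 32.3% without those forms. The repeat share was 12.3% at 10 reads or more, 4.9% with 6 bases and 0.891% with 12. Ends in 1 gene were 99.1% at 1000 nt or more. The causes of these shifts were not tested. Most long skips had too few reads for any test, which limits these comparisons to 12 of 449.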
